A study of Mus musculus with 19 samples.

Results

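Cultured mouse motor neurons that received an LNA against miR-146a were compared with cultures that received a control LNA. All 6 of the 19 libraries of the series that carry an LNA label were used, 3 labelled miR-146a LNA and 3 labelled control LNA. An LNA is a short oligonucleotide built from locked nucleic acids, which binds a microRNA tightly and keeps it from its targets. Both groups were wild-type motor neurons made from RW.4 mouse embryonic stem cells with retinoic acid and SAG, an activator of hedgehog signalling, and kept in neuronal medium with growth factors. Both received 10 nM of LNA with Lipofectamine 2000 and were taken after 72 h, so every library had gone through a transfection. The other 13 libraries of the series are spinal cords, 9 of miR-146a knockout mice and 4 of wild-type mice. The cultures come from 1 stem cell line, the labels do not mention sorting of the neurons, and nothing states whether the libraries within a group were separate cultures. All p-values therefore measure the spread between these libraries, which may be technical.

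miR-146a is a microRNA that NF-kB switches on in many cells, and it is best known for a feedback in which it represses Irak1 and Traf6, the kinase and the ubiquitin ligase that carry signals from Toll-like and interleukin-1 receptors. A microRNA guides Argonaute proteins to messenger RNAs whose 3′ untranslated region (3′ UTR) pairs with its seed, the bases near its 5′ end, and the bound messengers are destabilised and translated less. miR-146b has the same seed and can bind the same sites. The mature sequences of both, from RefSeq, are given here with the seed (bases 2 to 8) in capitals, because the sites examined below are defined by it. The miR-146a-5p sequence lies at chr11:43374435-43374456 on the minus strand and miR-146b-5p at chr19:46342790-46342811 on the plus strand (GRCm38).
mmu-miR-146a-5p: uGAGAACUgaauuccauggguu
mmu-miR-146b-5p: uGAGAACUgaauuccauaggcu

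These counts hold no reads of the microRNA itself. Mir146, the precursor gene of miR-146a, had 0 counts in all 6 libraries. The 0 counts allow up to 0.0180 CPM (counts scaled to a fixed library total) over the LNA group and 0.0178 CPM over the control group, which is what 3 counts would be there. Mir146b also had 0 counts throughout. The block of the microRNA was therefore not checked by these data.

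The 8-base match to the seed, AGTTCTCA, stands in the 3′ UTRs of Irak1 and Traf6 and of other genes described below. One window of 22 bases is shown for each of 6 genes, written as DNA in the sense of the messenger, with the match in capitals. Irak1 and Traf6 are shown as the textbook targets, Nlgn1 as the reported target with the smallest p, Anxa4 as the gene with such a match that rose with the smallest p, and Clasp1 and Crk from the 5 of smallest p that fell.
Irak1: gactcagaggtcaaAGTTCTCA
Traf6: ccgctctggtgttgAGTTCTCA
Nlgn1: accattctgattacAGTTCTCA
Anxa4: ttagacagatccaaAGTTCTCA
Clasp1: agggtgtatcttagAGTTCTCA
Crk: aatgggatgctcaaAGTTCTCA

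Counted from the first base of the 3′ UTR, the match starts at base 40 in Irak1 (ENSMUSG00000031392, chromosome X, 74013914 to 74023918, minus strand) and at base 460 in Traf6 (ENSMUSG00000027164, chromosome 2, 101678429 to 101701669, plus strand). It starts at base 1087 in Nlgn1 (chromosome 3, 25426215 to 26332460, minus strand), base 447 in Anxa4 (chromosome 6, 86736840 to 86793584, minus strand), base 450 in Clasp1 (chromosome 1, 118389058 to 118612678, plus strand) and base 854 in Crk (chromosome 11, 75679259 to 75706908, plus strand). Traf6 has 4 matches of at least 7 bases that pair with seed bases 2 to 8, Clasp1 has 3, Irak1 has 2 and the others 1. All gene coordinates are on GRCm38.

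Neither textbook target passed the test. Irak1 stood at 32.9, 33.3 and 33.1 normalised CPM in the control libraries and at 37.0, 36.8 and 35.1 after miR-146a LNA. All 3 LNA libraries were above all 3 controls, yet the log2 difference of 0.13 (SE 0.07) had an edgeR adjusted p of 0.264. A lack of overlap between the groups was common, since 28% of all genes tested showed it. Traf6 stood at 42.7, 49.5 and 50.2 normalised CPM in the controls and at 44.5, 47.7 and 45.1 after miR-146a LNA, where the groups overlapped. Its log2 difference was −0.05 (SE 0.07, edgeR adjusted p = 0.729).

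Of 40 genes listed as reported miR-146a targets, 36 had enough counts to be tested. With edgeR none of them rose and 7 fell (at an unadjusted p under 0.05, 1 was higher and 13 were lower), beside 2.4% of all genes tested that rose and 6.16% that fell. The median log2 difference of the 36 was −0.09, and for all genes tested it was 0.01. The list medians in single libraries were −0.09, −0.04 and −0.13 after miR-146a LNA and 0.04, 0.00 and −0.02 in the controls. Of the 7 that fell, Nlgn1, Robo1, Camk2d and Map1b stretch over 906, 738, 250 and 95.1 kb, introns included. Syt1 also spans more than 300 kb, and Nos1 and Nova1 each span between 100 and 300 kb. Long genes fell more often, as given below: 44.7% of tested protein-coding genes over 300 kb and 22.1% from 100 to 300 kb fell. The targets were not set beside genes of the same length. The list comes from general knowledge of the field and was not checked against a target database.

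Among the 7 that fell, Nlgn1, the synaptic adhesion protein neuroligin 1, went from 65.0, 66.8 and 65.1 to 45.6, 47.3 and 45.1 normalised CPM. It fell by 0.51 on the log2 scale (SE 0.06, edgeR adjusted p = 4.41e-05). Robo1, the receptor for the axon repellent Slit, went from 94.1, 96.0 and 88.6 to 67.7, 71.1 and 63.8 normalised CPM, a fall of 0.46 on the log2 scale. Map1b, a microtubule-associated protein of axons, fell by 0.33 on the log2 scale. Nova1, a neuronal splicing factor, fell by 0.23. Camk2d, a calcium and calmodulin dependent kinase, fell by 0.24, Nos1, the neuronal nitric oxide synthase, by 0.58, and Syt1, the calcium sensor of vesicle release, by 0.16. Syt1 had an adjusted p of 0.047 and lost its call with library size, upper quartile or RLE scaling and when any control library or LNA replicate 1 was left out. Nos1 lost its call without LNA replicate 2 or any control library, Camk2d without control replicate 2 and Nova1 without control replicate 1. Without control replicate 2 the count that fell was 4, and in a fit of all 19 libraries of the series it was also 4.

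Genes with a seed match were slightly lower on the whole than genes without one. A site was classed by the longest match to the seed in 1 transcript per gene: 8mer (AGTTCTCA), 7mer-m8 (AGTTCTC), 7mer-A1 (GTTCTCA), 6mer (GTTCTC) or none. Only the sense strand of the 3′ UTR was searched, and, since the longer motifs hold the shorter, each gene was put in the first of these classes whose letters it held. Of the 14328 tested protein-coding genes with a 3′ UTR, 4.05% held an 8mer, 7.24% a 7mer-m8, 7.23% a 7mer-A1 and 11.9% a 6mer. Among the 580 genes with an 8mer, 9 rose and 81 fell, with a median log2 difference of −0.06. Among the 9969 genes with no match, 323 rose and 646 fell, with a median of 0.00. The 197 genes with 2 or more matches of the 8mer or 7mer-m8 kind had 3 that rose and 32 that fell, with a median of −0.07. With library size alone as the scaling the median was −0.01 for the 8mer class and 0.04 for the class with none.

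The classes differ in length, and within each of 3 parts by 3′ UTR length their medians lay close together. The median 3′ UTR had 2558 bases in the 8mer class and 682 bases in the class with none. Of 3 parts of equal size by 3′ UTR length, in the longest, from 1617 bases up, the median log2 difference was −0.07 for 423 genes with an 8mer and −0.06 for 1990 genes with none. In the middle part it was −0.03 for 130 genes and −0.01 for 3581 genes, and in the shortest part −0.01 for 27 genes and 0.04 for 4398 genes. In each part the interquartile ranges of these 2 classes overlapped. The shares that fell were 16.3% with an 8mer and 12.3% with none in the longest part, and 8.46% and 6.53% in the middle part. In the shortest part they were 3.70% and 3.80%. Length within a part and gene span were not matched, and whether length accounts for the class differences was not tested.

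**Figure D1:**
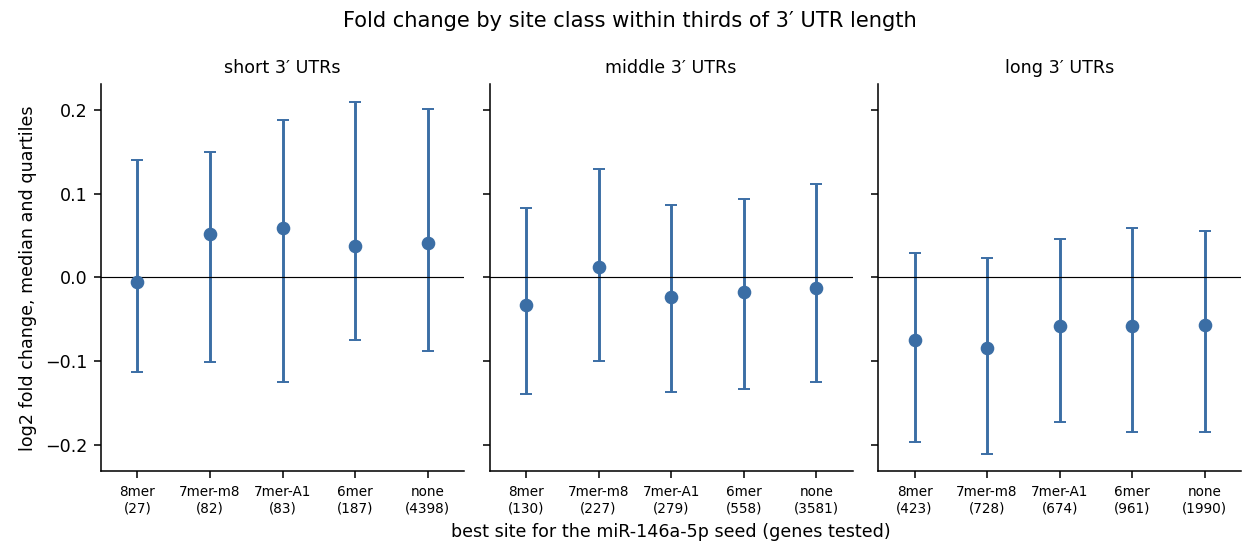
The points are median log2 fold changes (miR-146a LNA over control LNA, y axis) of tested genes by best seed match in the 3′ UTR (x axis, number of genes in brackets), with bars from the lower to the upper quartile, in 3 panels by 3′ UTR length. In the long panel all 5 medians lie below 0, from −0.08 to −0.06, whether or not a match is present.

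Single genes with an 8mer moved in both directions. The 5 that rose with the smallest p were Anxa4, an annexin, Ptgr1, a prostaglandin reductase, Npr3, the natriuretic peptide clearance receptor, Ebpl, and Stx2, a syntaxin. Anxa4 stood at 1.77, 1.36 and 1.42 normalised CPM in the controls and at 4.38, 2.74 and 3.80 after miR-146a LNA, a log2 difference of 1.26 (SE 0.23, edgeR adjusted p = 0.00207). Npr3, Ebpl and Stx2 lost their calls when single libraries were left out, each of them without control replicate 3. Clasp1, a protein that stabilises microtubule plus ends, stood at 574, 548 and 536 normalised CPM in the controls and at 362, 387 and 370.2 after miR-146a LNA, a fall of 0.57 on the log2 scale (SE 0.05, edgeR adjusted p = 3.03e-06). Crk, an adaptor of tyrosine kinase signalling, fell by 0.51, Armc8 by 0.62, Ppfia2, a liprin of the presynaptic active zone, by 0.59, and Osbpl6, an oxysterol binding protein homologue, by 0.58.

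Over the whole transcriptome 1635 of 19099 genes tested passed the edgeR threshold (8.56%), 458 of them higher and 1177 lower after miR-146a LNA. Changes were mostly small. The median fold of the genes that rose was 1.475, and that of the genes that fell was 1.276 (control over LNA). The genes that rose also started lower, with a median of 9.31 normalised CPM in the controls against 66.3 for the genes that fell. The split between the directions depended on the scaling: 72.0% of calls were lower with TMM, 52.9% with library size alone and 57.3% with the upper quartile. Leaving out control replicate 2 gave 778 calls, 172 higher and 606 lower, and leaving out control replicate 1 gave 1059, 255 of them higher. The count of genes that rose was 294 without LNA replicate 1 and 238 without control replicate 3. In a fit of all 19 libraries 632 genes were called.

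Total counts ran from 40647549 to 65471742, so that 3 counts are 0.0458 to 0.0738 CPM in single libraries, and such limits cover counting error only. LNA replicate 1 was the shallowest. LNA replicate 3 stood apart from the other LNA libraries, with a chi-square per degree of freedom of 18.4 and 23.1 to them. Those differed from each other by 7.41, and the controls among themselves by 6.42 to 10.7. LNA replicates 1 and 2 differed from the controls by 18.9 to 22.8, so LNA replicate 3 was about as far from them as the controls were. The distance of LNA replicate 3 to the controls was 32.6 to 40.4. Without it 1985 genes were called, 1437 of them among the 1635.

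Of the genes that rose, Emc1 had the smallest p. It encodes a subunit of the endoplasmic reticulum membrane complex, which inserts proteins into that membrane. It stood at 66.9, 76.3 and 73.4 normalised CPM in the controls and at 134, 129 and 125 after miR-146a LNA, 1.79-fold higher (log2 0.84, SE 0.06, edgeR adjusted p = 6.41e-07). Pcdh18, a protocadherin, went from 9.72, 8.63 and 6.45 to 18.3, 19.2 and 16.9 normalised CPM (log2 1.13, SE 0.13, edgeR adjusted p = 4.04e-05). In both genes every LNA library lay above every control. The groups did not overlap in 1626 of the 1635 called genes and in 28% of all genes tested, so this adds nothing to the call.

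Mt1 and Mt3, neighbouring genes on chromosome 8 for metallothioneins that bind zinc and copper, rose by 1.25 and 1.00 on the log2 scale. Mt1 went from 4.27, 4.49 and 4.60 to 10.8, 8.56 and 12.4 normalised CPM. Plin2 and Plin3, which coat lipid droplets, rose by 0.46 and 1.06. Gpi1, the glycolytic glucose phosphate isomerase, rose by 0.48 from a mean of 298 ± 4.69 to 415 ± 29.0 normalised CPM (SD, n = 3 each). Pros1, the anticoagulant protein S and a ligand of TAM receptors, rose by 0.70, Wdr60, a dynein component of cilia, by 1.07, Gucy1a1, a subunit of the nitric oxide receptor, by 0.77, and Ppp1r1c, a phosphatase inhibitor subunit, by 0.68. Nfe2l2, the transcription factor NRF2 that drives antioxidant genes, rose from 5.59 ± 0.846 in the controls (SD, n = 3) to 12.2, 11.4 and 10.0 normalised CPM (log2 1.00, SE 0.14, edgeR adjusted p = 0.000193). For Mt1, Pros1, Plin2, Ppp1r1c and Nfe2l2 the call was lost when all 19 libraries were fitted together.

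Of the genes that fell, Mfhas1 had the smallest p. It encodes a leucine-rich repeat protein linked to Toll-like receptor signalling. It went from 142, 136 and 136 to 79.2, 80.7 and 73.3 normalised CPM (a fall of 0.83 on the log2 scale, SE 0.06, edgeR adjusted p = 4.61e-07). Cacna2d3, an accessory part of calcium channels that voltage opens, went from 40.4, 36.6 and 36.6 to 14.7, 15.6 and 17.4 normalised CPM, a fall of 1.25. Slc8a1, the sodium and calcium exchanger, went from 122, 120 and 109 to 60.5, 67.5 and 67.4, a fall of 0.85. In all 3 genes every LNA library lay far below every control, a lack of overlap that nearly all called genes share.

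Ehbp1, an adaptor between endosomes and actin, fell by 0.78 on the log2 scale, from 91.6 ± 3.66 to 53.2 ± 0.963 normalised CPM (SD, n = 3 each). Slc1a4, the transporter of serine and other neutral amino acids, fell by 0.67, and Tmem38a, a potassium channel of the endoplasmic reticulum that balances calcium release, by 0.68. Sorcs2, a sorting receptor for neurotrophin receptors, fell by 0.93, Pcdh11x, a protocadherin, by 0.69, Simc1, a protein that binds SUMO, by 0.73, and Vgf, the precursor of secreted neuropeptides, by 0.57. Vgf was abundant, at a mean of 1557 TPM (a level scaled by length) in the controls and 1049 after miR-146a LNA. Each of the 12 genes of smallest p in each direction kept its call when any 1 library was left out, among genes with a mean of at least 5 normalised CPM. In the fit of all 19 libraries Tmem38a and Vgf lost it, as did the 5 genes named above that rose. Htr1a, the serotonin 1A receptor, had 22, 29 and 18 counts in the controls and 0 in each LNA library. Against a floor of 3 counts over the LNA group it was at least 22.7-fold lower. DESeq2 gave it no adjusted p.

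**Figure D2:**
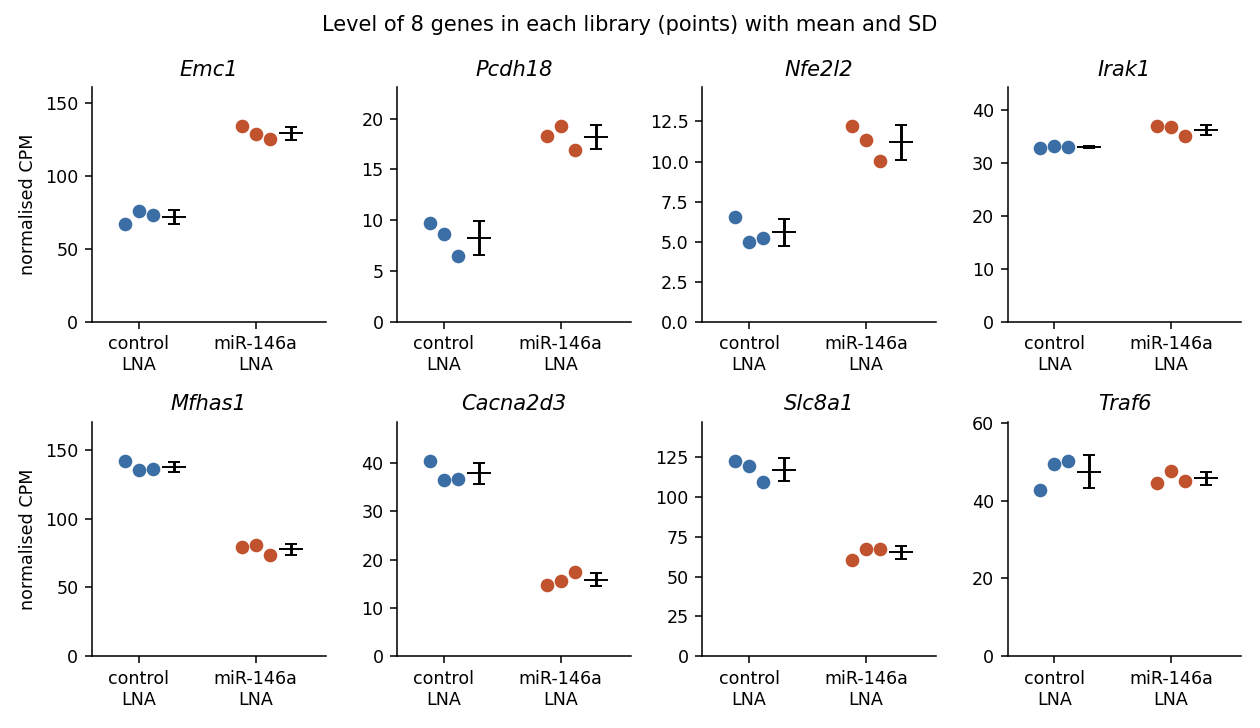
Each point is 1 library and the y axis is its level in normalised CPM, starting at 0, with the mean and SD of the group beside the points. Emc1, Pcdh18 and Nfe2l2 stood higher in all 3 miR-146a LNA libraries, Mfhas1, Cacna2d3 and Slc8a1 stood lower in all 3, Irak1 moved from a mean of 33.1 to 36.3 and Traf6 overlapped.

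Long genes fell more often than short ones. Span is the distance from the first to the last base of a gene, introns included. Among tested protein-coding genes under 10 kb, 1.75% fell and the median log2 difference was 0.05. The share that fell was 2.77% from 10 to 30 kb, 8.30% from 30 to 100 kb, 22.1% from 100 to 300 kb and 44.7% over 300 kb, where 239 of 535 genes fell, 3 rose and the median was −0.31. The median span of the genes that fell was 111 kb, against 18.6 kb for those that rose and 25.4 kb for all tested.

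The pattern stood in every LNA library. The median log2 deviation of the genes over 300 kb from the control mean was −0.31, −0.27 and −0.29 in LNA replicates 1, 2 and 3, and 0.02, 0.02 and −0.04 in the controls. Those genes took 2.51%, 2.58% and 2.54% of all counts after miR-146a LNA and 3.09%, 3.08% and 2.94% in the controls. With the other scalings the median stayed between −0.31 and −0.27, and leaving out single libraries gave 175 to 236 genes that fell. In the fit of all 19 libraries the count was 137. From 30 to 100 kb 348 genes fell, but 158 without control replicate 2, 217 without control replicate 1, 230 without control replicate 3, 227 without LNA replicate 1, 231 with library size alone and 126 in the fit of all 19 libraries. From 10 to 30 kb 126 fell, but 50 without control replicate 2, 70 without control replicate 3, 78 without LNA replicate 1, 73 with library size alone, 78 with the upper quartile and 32 in the fit of all 19 libraries. Under 10 kb 60 fell, but 26 without control replicate 2, 38 without control replicate 3 and 24 in the fit of all 19 libraries. From 100 to 300 kb 379 genes fell, but 239 without control replicate 1, 183 without control replicate 2 and 144 in the fit of all 19 libraries. Exonic length moved with span: of 5 parts of equal size by exonic length, 1.18% fell in the shortest and 19.5% in the longest. Whether span, exonic length or another feature of these genes goes with the fall was not tested.

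**Figure D3:**
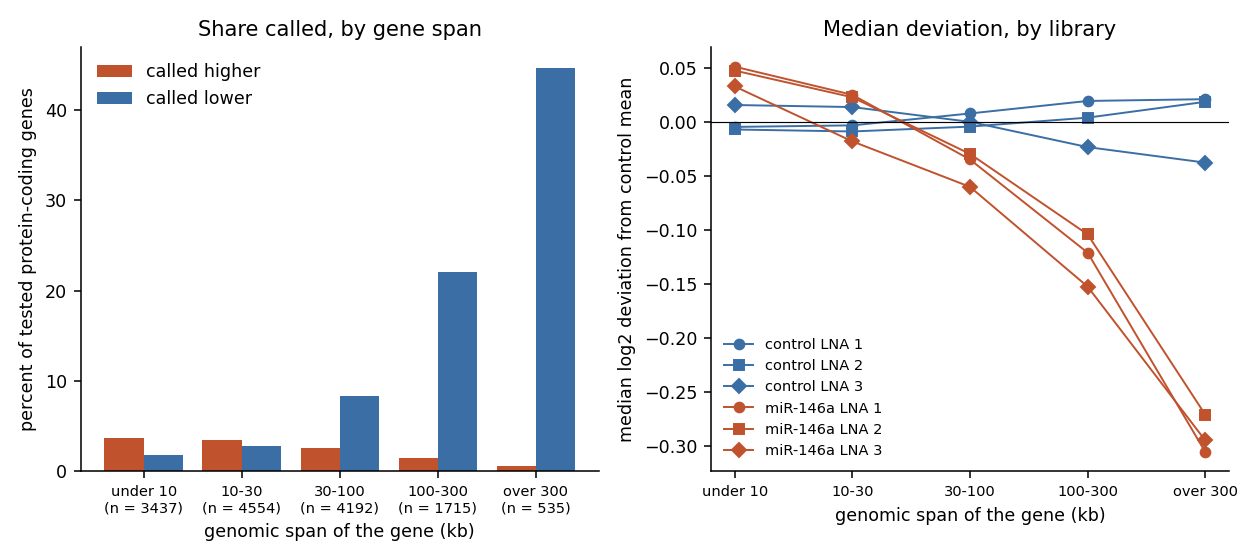
On the left, bars give the percent of tested protein-coding genes that passed the test higher or lower, by genomic span in kb. On the right, each line is 1 library and the y axis is the median log2 deviation from the control mean; the 3 LNA lines drop to about −0.3 for genes over 300 kb while the 3 control lines stay within 0.04 of 0.

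The longest genes that fell were Dmd, Lsamp, Lrp1b, Macrod2 and Dlg2. Dmd, the gene of dystrophin, spans 2257 kb on chromosome X and went from 51.7, 45.3 and 48.5 to 34.1, 36.8 and 31.9 normalised CPM, a fall of 0.50 on the log2 scale (SE 0.08, edgeR adjusted p = 0.000408). Dlg2, the postsynaptic scaffold PSD-93, fell by 0.51, Lsamp, a limbic adhesion protein, by 0.51 and Lrp1b, a lipoprotein receptor relative, by 0.55. Lsamp lost its call without control replicate 1, Lrp1b without LNA replicate 3, and Macrod2 under 2 scalings and without LNA replicates 1 or 2 or control replicates 2 or 3. Not every long gene fell. Asic2, an acid-sensing ion channel that spans 1088 kb, went from 13.7 ± 0.798 (SD, n = 3) to 20.4, 19.5 and 17.2 normalised CPM, a rise of 0.47, though it lost the call without control replicate 2. Dysf, the membrane repair protein dysferlin, spans 202 kb and rose from 11.6 ± 0.924 to 18.7 ± 1.87 (SD, n = 3 each).

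Many synaptic genes were among those that fell. Of the 43 tested genes of vesicle release, 18 fell and none rose, with a median log2 difference of −0.22. Cadps, which primes dense-core vesicles, went from 378, 382 and 378 to 266, 291 and 287 normalised CPM, a fall of 0.43 (SE 0.05, edgeR adjusted p = 2.83e-05). Nsf, the ATPase that recycles SNARE complexes, fell by 0.41, and Rims1, a scaffold of the active zone, by 0.53. Of 49 synaptic adhesion genes 20 fell and 1 rose, with a median of −0.25. Negr1, Cadm2, Adgrl3 and Lrfn5, cell-surface proteins that join neurons, fell by 0.68, 0.78, 0.70 and 0.41. The 1 that rose was Cbln2, a secreted synapse organiser, by 0.24, and it lost the call without LNA replicate 2 or any control library.

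Receptors for transmitters moved the same way. Of 42 genes of glutamate receptors and their scaffolds, 16 fell and none rose (median −0.26). Gria4, an AMPA receptor subunit, went from a mean of 173 to a mean of 128 normalised CPM (n = 3 each), a fall of 0.44 on the log2 scale (SE 0.05). Grik1, a kainate receptor subunit, fell by 0.48 and Grm7, a metabotropic receptor, by 0.53. Of 20 genes of GABA and glycine receptors 9 fell, none rose and all 20 had a negative difference (median −0.22). Without control replicate 2 the count of GABA and glycine receptor genes that fell was 5, and without LNA replicate 1 the count of adhesion genes was 13.

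Ion channels, guidance cues and neurotrophic receptors gave similar counts. Of 50 potassium channel genes 15 fell and 1, Kcnh3, rose (median −0.20), and of 25 calcium channel and transport genes 9 fell and none rose (median −0.29). Kcnh3, at a mean of 0.607 normalised CPM in the controls and 1.48 after miR-146a LNA, lost its call without LNA replicate 1 or 2 or control replicate 2 or 3. Kcnip1, a Kv4 channel partner, went from 71.6, 72.6 and 73.0 to 48.8, 47.9 and 49.4 normalised CPM, a fall of 0.57 (SE 0.06, edgeR adjusted p = 1.56e-05). Cacna2d1 and Cacna1a, subunits of presynaptic calcium channels, fell by 0.64 and 0.55. Of 14 sodium channel genes 3 fell: Fgf12 and Fgf14, which regulate the channels, and Unc79, a part of the leak channel. Of 48 axon guidance genes 18 fell and none rose (median −0.18), among them Dcc, the netrin receptor, by 0.69, and Nrp2, a semaphorin receptor, by 0.47. Of 25 genes of neurotrophic receptors and adaptors 11 fell and 2, Ngfr and Ntf3, rose (median −0.22), and Ntrk3, the receptor of neurotrophin 3, fell by 0.52. Ngfr lost its call without LNA replicate 2 or control replicate 2 or 3, Ntf3 without LNA replicate 1 or any control library, and both in the fit of all 19 libraries. Without control replicate 2 the count of guidance genes that fell was 10.

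Fitting all 19 libraries gave fewer calls in these lists, except for sodium channels, where 3 genes fell as before. The counts that fell were then 10 for vesicle release, 12 for adhesion, 11 for glutamate receptors, 3 for GABA and glycine receptors, 11 for potassium channels, 7 for calcium channels, 4 for axon guidance and 6 for neurotrophic receptors. In that fit the spread of the cord libraries enters the test.

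These neuronal genes are long, and they were set beside other genes of the same span. The 8 lists of vesicle release, adhesion, both receptor families, the 3 channel families and axon guidance hold 291 tested genes, with a median span of 159 kb against 24.9 kb for the other protein-coding genes. Over 300 kb, 61.5% of 104 list members and 40.6% of 431 other genes fell, with medians of −0.42 and −0.28. From 100 to 300 kb the shares were 36% of 75 and 21.5% of 1640, with medians of −0.19 and −0.13. From 30 to 100 kb they were 22.2% of 54 and 8.12% of 4138. Under 10 kb 3 of 20 members fell, with a median of −0.08 against 0.06 for the others. From 10 to 30 kb 2 of 38 members (5.26%) and 2.75% of 4516 others fell, with medians of −0.07 and 0.01. In each of these ranges the list members thus had the larger share and the lower median, as a description without a test. The lists were written with earlier results of these data known. Level was not matched, and genes that fell had a median of 66.3 normalised CPM in the controls, against 11.0 for all tested.

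**Figure D4:**
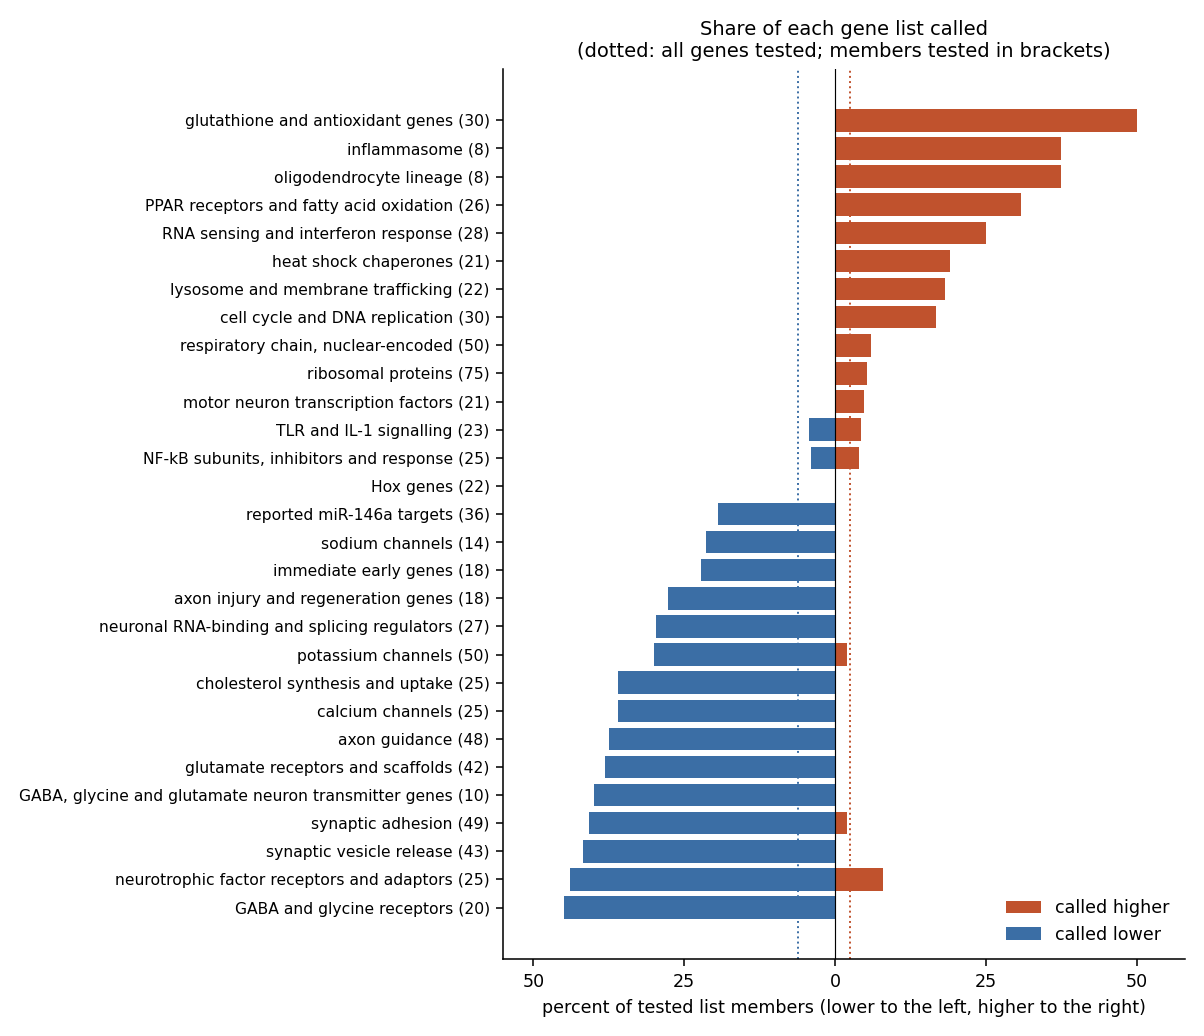
Bars give the percent of tested members of each list that passed the test, lower to the left and higher to the right, and dotted lines give 6.16% lower and 2.4% higher over all genes tested. Among the lists shown, glutathione and antioxidant genes reach furthest to the right (15 of 30 higher), and the synaptic, receptor, channel and guidance lists reach to the left.

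Of 30 tested genes of the glutathione system and of defence against oxidants, 15 rose and none fell, with a median log2 difference of 0.24. Nfe2l2, given above, is one of them, and others are Gclc and Gss, which make glutathione, Cat, catalase, and Prdx1 and Prdx6, peroxiredoxins. Gsr, glutathione reductase, went from 118, 103 and 106 to 143, 139 and 135 normalised CPM (log2 0.35, SE 0.06, edgeR adjusted p = 0.000837), and Gpx1, a glutathione peroxidase, rose by 0.28. The list median was 0.25, 0.18 and 0.21 in the LNA libraries and −0.03 to 0.03 in the controls. The count was sensitive to the controls: 8, 5 and 9 members were called without control replicates 1, 2 and 3, and 2 in the fit of all 19 libraries.

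Genes of fatty acid oxidation and its PPAR regulators had 8 of 26 members that rose and none that fell (median 0.19). Cpt1a, the carnitine palmitoyltransferase that admits fatty acids to mitochondria, rose by 0.39 from 45.4 ± 1.24 to 59.4 ± 5.11 normalised CPM (SD, n = 3 each), and Fabp3, a fatty acid binding protein, rose by 0.33. The counts were 4 without LNA replicate 1, 5 without control replicate 1, 4 without control replicate 2 and 0 in the fit of all 19 libraries. Of 25 cholesterol genes 9 fell and none rose (median −0.19). Hmgcs1, which acts early in the path to mevalonate, fell by 0.33, and Msmo1 and Fdft1, later enzymes of the path, by 0.45 and 0.42. With library size or upper quartile scaling 5 cholesterol genes were called, likewise 5 without control replicate 2 or 3, and 0 in the fit of all 19 libraries.

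Stress and turnover genes moved in small numbers. Over all genes tested 2.4% rose and 6.16% fell. Of 21 heat shock genes 4 rose, led by Bag3, a chaperone partner in autophagy, from 8.36, 8.92 and 9.78 to 17.6, 15.6 and 14.1 normalised CPM (log2 0.80, SE 0.11, edgeR adjusted p = 0.00021), and the median was 0.05. Of 22 lysosomal genes 4 rose, led by Ctsz, a cathepsin, which went from 7.74, 7.71 and 8.75 to 18.4, 14.5 and 12.9 normalised CPM. Without LNA replicate 1 or any 1 control library 2 heat shock genes were called. The lysosomal count was 2 without LNA replicate 1, control replicate 1 or control replicate 3, 1 without control replicate 2, 8 without LNA replicate 3 and 7 with library size alone, and in the fit of all 19 libraries neither list had a call. Of 26 genes of the unfolded protein response 2 fell, Atf3 by 0.34 and Atf6 by 0.27, and none rose, a share of 7.69% beside the 6.16% of all genes tested that fell; Atf6 lost its call without control replicate 2. Of 24 apoptosis genes 4 fell (16.7%), among them Bcl2, Bcl2l11 and Apaf1, and Casp8 and Ripk3 rose (8.33%). Without control replicate 2, 1 gene fell and 1 rose. None rose without LNA replicate 1, control replicate 1 or control replicate 3, and 1 rose without LNA replicate 3. Apaf1, the core of the apoptosome, went from 66.7, 66.1 and 59.4 to 36.1, 44.6 and 38.3 normalised CPM, a fall of 0.69 (SE 0.08, edgeR adjusted p = 4.04e-05).

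Genes of the pathway that miR-146a is best known for changed in few cases. Of 23 tested genes of Toll-like and interleukin-1 receptor signalling 1 rose, the receptor Il1r1, and 1 fell, Tlr5, the flagellin receptor. Il1r1 stood at a mean of 1.29 normalised CPM in the controls and 2.61 after miR-146a LNA, and Tlr5 at 2.06 and 1.12, and both lost their calls without control replicate 2 or 3 or LNA replicate 1. With RLE, library size or upper quartile scaling, with either other filter, with DESeq2 or voom, or without LNA replicate 3, 3 or 4 genes of the list rose. None rose without LNA replicate 1, without control replicate 2 or in the fit of all 19 libraries. At an unadjusted edgeR p under 0.05, 5 of the 23 were higher and 1 was lower. Of 25 NF-kB genes the receptors Tnfrsf1a and Tnfrsf1b passed, the first higher by 0.44 and the second lower by 0.36, and both lost their calls without control replicate 2. The subunit genes Nfkb1 and Rela had log2 differences of −0.13 and −0.07 and the inhibitor Nfkbia −0.06, none of which passed. The medians of both lists were 0.02 and −0.06. By count with edgeR and TMM, 2 of 23 and 2 of 25 are close to the 8.56% of all genes called. By direction the shares were 4.35% each way in the first list and 4% each way in the second. Of all genes tested 2.4% rose and 6.16% fell.

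Genes of RNA sensing and the interferon response had 7 of 28 members that rose, none that fell and a median of 0.35. The shares over all genes tested were 2.4% higher and 6.16% lower. B2m, the light chain of MHC class I, went from 42.8, 48.9 and 48.4 to 67.0, 56.0 and 76.4 normalised CPM (log2 0.51, SE 0.10, edgeR adjusted p = 0.00521). Ifitm2, an interferon-induced membrane protein, rose by 0.57. Of 8 inflammasome genes 3 rose: Nlrp6, a sensor of the inflammasome, Casp1, its protease, from 0.947 to 2.09 normalised CPM, and Gsdmd, the pore protein it cleaves, from 0.198 to 0.914. Gsdmd lost its call without LNA replicate 1 and Casp1 without LNA replicate 2 or control replicates 1 or 2, and none of the 3 was called in the fit of all 19 libraries. For RNA sensing the count was 4 without LNA replicate 1, 4 without control replicate 2, 4 without control replicate 3 and 1 in the fit of all 19 libraries. The summed level of 5 microglial markers was 0.318 to 0.495 TPM after miR-146a LNA and 0.347 to 0.385 TPM in the controls, with Cx3cr1 and P2ry12 at 0 to 4 counts per library. Csf1r was the 1 with enough counts to be tested, and it was not called. Ptprc, the CD45 of leukocytes, had 6, 2 and 0 counts in the controls and 21, 9 and 26 after miR-146a LNA, too few to be tested. The part of such cells in the rise of these genes was not tested.

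Some gene groups moved mainly in LNA replicate 3. The median of 75 ribosomal protein genes deviated from the control mean by 0.09, 0.08 and 0.47 in LNA replicates 1, 2 and 3. For 13 mitochondrially encoded genes the values were −0.02, −0.03 and 0.55, for 50 nuclear genes of the respiratory chain 0.11, 0.06 and 0.36, and for 2114 processed pseudogenes 0.10, 0.07 and 0.45. Processed pseudogenes are copies of messengers without introns, and reads of near-identical copies cannot be placed with certainty. They took 0.545%, 0.529% and 0.758% of counts in those libraries and 0.472% to 0.510% in the controls. Of the ribosomal protein genes 73 of 75 had a positive difference but 4 passed the test, among them Rps14, Rps16 and Rps19. The count was 1 without LNA replicate 3, control replicate 1 or control replicate 3, 0 without control replicate 2, 13 without LNA replicate 2, 28 with no filter and 14 with DESeq2. The synaptic and glutathione medians, by contrast, were of similar size in all 3 LNA libraries, as the plot of list medians shows.

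**Figure D5:**
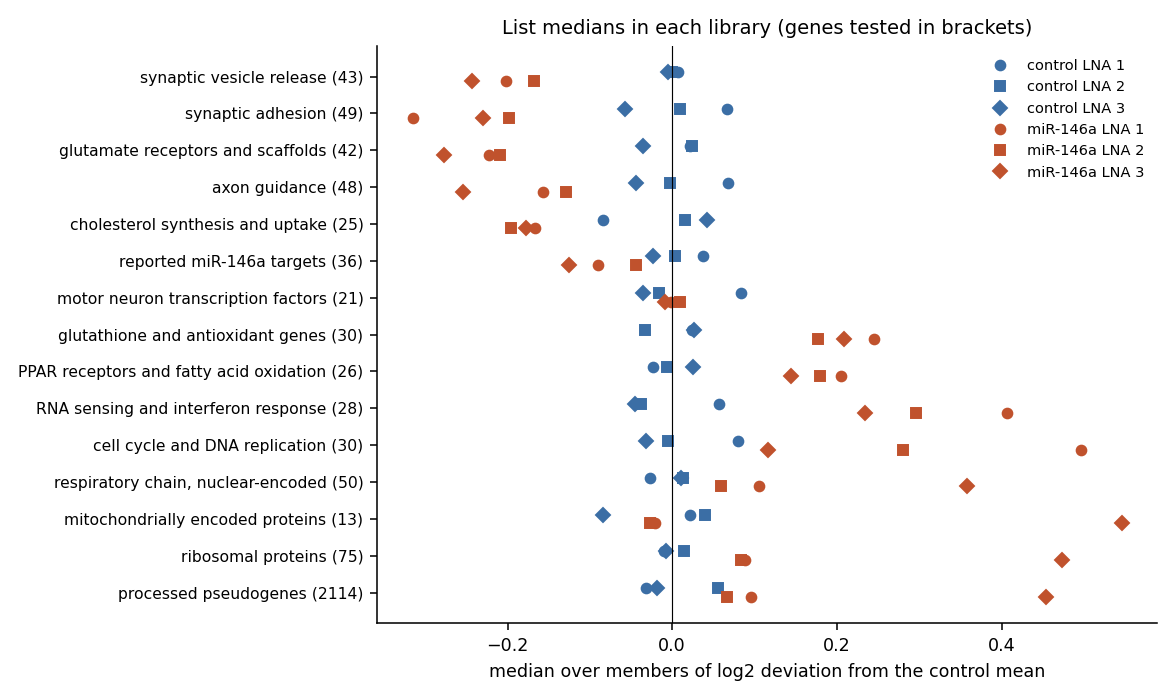
Each point is 1 library, and the x axis is the median over a list's tested genes of the log2 deviation from the control mean. Synaptic lists lie between −0.32 and −0.17 and glutathione genes between 0.18 and 0.25 in all 3 LNA libraries, whereas ribosomal, mitochondrial and pseudogene medians are high in LNA replicate 3.

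The cultures kept the marks of motor neurons. The summed level of 8 motor neuron markers was 4563 to 4684 TPM in the controls and 4499 to 4919 TPM after miR-146a LNA, with Prph and Slc18a3 at the top. Lhx3 was the weakest, at 0.823 to 1.78 TPM in the controls. None of 21 motor neuron transcription factor genes fell, and 1 rose: Isl1, a LIM homeodomain factor, from 229, 206 and 196 to 254, 267 and 262 normalised CPM (log2 0.31, SE 0.06, edgeR adjusted p = 0.00177). Of 22 Hox genes none passed with edgeR, DESeq2 or limma voom, and at an unadjusted edgeR p under 0.05, 1 was higher and 2 were lower.

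Markers of other cells were low but did not all stay level. The summed level of 9 spinal interneuron markers was 21.7 to 27.6 TPM in the controls and 14.5 to 16.4 TPM after miR-146a LNA, and 3 of 8 tested fell: Gad1, Gad2 and Slc6a5. Beside these counts, 6.16% of all genes tested fell and 2.4% rose. Gad1, which makes GABA, went from 7.94, 6.15 and 5.79 to 3.02, 3.06 and 3.37 normalised CPM, a fall of 1.07 (SE 0.17, edgeR adjusted p = 0.000575). Gad2, the other enzyme for GABA, fell by 0.44, and lost its call without control replicate 1 or 3. Slc6a5, the glycine transporter, rested on 1 high control library (7.97 normalised CPM, against 3.70 and 3.49 in the other controls) and lost its call without it, without any 1 LNA library and with library size scaling or voom. The GABA, glycine and glutamate transmitter genes had 4 of 10 that fell and a median of −0.55, and without control replicate 1 the count was 2. Progenitor markers summed to 34.6 to 40.2 TPM in the controls and 43.1 to 50.8 TPM after miR-146a LNA, where 1 of 6, Nes, rose. Nes makes up most of that sum, at a mean of 29.6 TPM in the controls and 39.2 TPM after miR-146a LNA. Sox2 was at 4.87 and 3.96 TPM and Pax6 at 0.701 and 0.510 TPM, and neither passed the test. In bulk RNA, fewer cells of a type and less RNA per cell cannot be told apart. The part of these cells in the falls of receptor and channel genes was not tested.

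Cycling genes had 5 of 30 members that rose, none that fell and a median of 0.39, with library medians of 0.50, 0.28 and 0.12 after miR-146a LNA. For comparison, 2.4% of all genes tested rose and 6.16% fell, with a median of 0.01. Mcm6, a replication helicase subunit, went from 29.8 ± 1.71 to 37.8 ± 3.11 normalised CPM (SD, n = 3 each), a rise of 0.35. The count was 1 without LNA replicate 1 or any 1 control library, 3 without LNA replicate 2, 8 without LNA replicate 3 and 0 in the fit of all 19 libraries. The summed level of 3 pluripotent cell markers was 0.396 to 1.12 TPM in the controls and 1.15 to 2.63 TPM after miR-146a LNA, so that the groups did not overlap. Most of it was Zfp42, the 1 of them tested, with 10, 26 and 26 counts in the controls and 52, 72 and 36 after miR-146a LNA (log2 1.36, SE 0.44, edgeR adjusted p = 0.0695). Zfp42 passed with no filter, DESeq2, limma voom or without LNA replicate 3. The summed level of 4 fibroblast and mural markers was 1.59 to 3.55 TPM in the controls and 2.74 to 3.94 TPM after miR-146a LNA, where 1 of 4, Dcn, rose (log2 1.44, SE 0.39). Dcn lost its call when any library other than LNA replicate 2 was left out and in the fit of all 19 libraries. The part of these cells in the 5 cycling genes that rose was not tested. Oligodendrocyte lineage genes had 3 of 8 that rose, Pdgfra, Bcas1 and Myrf, but 1 when any library other than LNA replicate 3 was left out, and 4 without that one.

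Activity and injury genes were lower where they passed. Over all genes tested 2.4% rose and 6.16% fell. Of 18 immediate early genes 4 fell and none rose (median −0.19), among them Jun by 0.25 and Dusp4, a MAP kinase phosphatase, by 0.31. Of 18 axon injury genes 5 fell and none rose (median −0.12). Adcyap1, the neuropeptide PACAP, went from 8.58, 10.9 and 10.5 to 4.55, 4.81 and 4.93 normalised CPM, a fall of 1.07 (SE 0.14, edgeR adjusted p = 9.45e-05). Of 21 genes of microRNA processing and silencing 3 rose, Prkra, Lin28a and Mov10, and 1 fell. None of the 3 was called without LNA replicate 2, control replicate 2 or control replicate 3, and 1 was without LNA replicate 1 or control replicate 1. The gene that fell was Ddx6, a helicase that acts with the silencing complex, from 31.3 ± 4.51 to 16.0 ± 1.93 normalised CPM (SD, n = 3 each), a fall of 0.97 (SE 0.11, edgeR adjusted p = 4.75e-05), and the Argonaute gene Ago2 had a difference of −0.10 that did not pass. In the fit of all 19 libraries 0 immediate early genes and 1 injury gene were called. The injury count was 2 without control replicate 2, and 3 without LNA replicate 2, control replicate 1 or control replicate 3 and with library size or upper quartile scaling. Of 27 neuronal splicing regulators 8 fell and none rose (median −0.11), led by Celf2 and Celf4 with falls of 0.44 and 0.32. Without LNA replicate 1, or control replicate 1 or 2, and with library size or upper quartile scaling, 4 splicing regulators were called, and without control replicate 3 there were 5.

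The cords of miR-146a knockout mice are the other loss of this microRNA in the series, and they were used to ask whether the LNA effect differed from the knockout effect. In an interaction test over all 19 libraries 423 of 24152 genes passed (1.75%). The cord library labelled knockout replicate 9 had Pttg1, a neighbour of Mir146, at 13.6 CPM, where the other 8 knockout cords had 1.07 to 1.81 CPM and the 4 wild-type cords 14.8 to 17.4 CPM, so at this gene it goes against its label. Without it 621 genes passed. The count was 214 without LNA replicate 1, 276 without LNA replicate 3, 243 without control replicate 1 and 255 without control replicate 2. Of the 17 genes to which the comparison was applied, the 5 of smallest p in each direction and the 7 reported targets that fell, 12 passed. They were chosen by their LNA effect, which is a part of the difference tested, so this count is not to be read against the 1.75%.

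For Emc1 the log2 difference was 0.84 in the cultures and −0.06 (SE 0.06) in the cords, and for Mfhas1 −0.83 and 0.02 (SE 0.05). The difference between the effects was 0.88 for Emc1 (SE 0.09, edgeR adjusted p = 5.73e-05) and −0.87 for Mfhas1 (SE 0.08, edgeR adjusted p = 4.90e-06). Without the library labelled knockout replicate 9 these were 0.85 and −0.87. Mt1 did not pass, with 1.25 in the cultures and 0.88 (SE 0.26, edgeR adjusted p = 0.292) in the cords. Cords hold many cell types and the knockout is lifelong, so material, dose and time differ between the 2 effects and cannot be told apart. Of the 1601 culture calls also tested in cords, 803 had the same sign there (50.2%). These were 237 of 434 genes that rose in the cultures and 566 of 1167 that fell. Over all genes tested in cords, 46.9% had a negative difference. Whether the share of same signs differs from that balance was not tested.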

How the data were processed

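RNA of 6 motor neuron cultures was sequenced as total RNA after removal of ribosomal RNA, in paired ends of 150 bases, per the submitters' design notes. STAR alignment to the assembly of Ensembl release 101 and featureCounts counting of unique, unambiguous reads are stated there too, per the submitters' design notes. The build is GRCm38, per the submitters' processing notes. How strand and duplicates were handled is not given in the sources used here, so overlapping, antisense and near-identical genes are uncertain. The files hold the counts that the authors deposited for 55487 genes, which all tests used. The CPM column deposited by the authors equals counts scaled by their sum. The TPM column deposited by the authors gave levels per length, and the FPKM column deposited by the authors was not used. Groups came from the treatment labels.

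Groups were compared in R 4.3.3 with edgeR 4.0.16 (quasi-likelihood F test, robust) on the 6 libraries. Low-count genes were removed by filterByExpr and libraries scaled by TMM. Benjamini-Hochberg adjustment ran over all 19099 genes, with a threshold of 0.05. Normalised CPM means TMM-scaled CPM. Standard errors follow from the fold change and F. Library medians used log2 of normalised CPM plus 0.5. The interaction was fitted over all 19 libraries. The code was checked on simulated counts. Alternatives were other scalings and filters, DESeq2 1.42.0, voom of limma 3.58.1, a fold threshold of 1.5, a replicate block, all 19 libraries, and leaving out each library.

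The members, the 56 gene lists and the tests were chosen with earlier results of these data known. Genes named are, per direction, the 12 calls of smallest p with a mean of at least 5 normalised CPM. Per direction, up to 4 calls per list, 5 calls with an 8mer and the 5 longest calls are also named. The reported targets, Mir146 and the markers are named too. Outside this rule, Nfkb1, Rela, Nfkbia, Ago2, Gclc, Gss, Cat, Prdx1 and Prdx6 were named after their values were seen. Symbols, gene types and 3′ UTRs came from GENCODE M21, in which 99.5% of the listed genes had a symbol. The 3′ UTR was that of the transcript with the longest coding sequence. A few items are not reported here.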

Additional observations from a re-analysis of the deposited data

Results flagged for a closer look

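For 12 named genes the effect of miR-146a LNA in the cultures differed from the knockout effect in the cords by the interaction test of edgeR, in log2 units of LNA effect minus knockout effect. Among the genes that rose in the cultures the differences were 0.88 for Emc1, 0.51 for Gpi1, 1.15 for Pcdh18 and 0.93 for Plin3. Among those that fell they were −0.87 for Mfhas1, −1.11 for Cacna2d3, −0.79 for Ehbp1, −1.01 for Slc8a1 and −0.72 for Slc1a4. Among the reported targets they were −0.62 for Nos1, −0.50 for Nlgn1 and −0.38 for Robo1. All 12 also passed without the library labelled knockout replicate 9. The genes were chosen by their LNA effect, which is a part of the difference tested. The range check for single outlying libraries was not run on groups of 3.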

How the results depend on the processing

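The count of 1635 calls was 4 with a fold threshold of 1.5 (Cacna2d3 and Htr1a lower, Chodl and Gm37995 higher, so 2 in each direction) and 632 when all 19 libraries were fitted together, with 146 higher and 486 lower. Leaving out single libraries gave 778 to 1985 calls in all, 172 to 677 higher and 606 to 1308 lower. Genes that rose numbered 741 with library size alone, 868 with no filter beyond 1 count, 746 with DESeq2 and 783 with limma voom. The interaction count of 423 was 268 with no filter, 916 with DESeq2, 976 with limma voom, 621 without the library labelled knockout replicate 9 and 214 to 404 without single culture libraries. The replicate block gave 1793 calls, 552 higher and 1241 lower, 1554 of them among the 1635. Deviations of same-numbered libraries correlated by 0.02, −0.20 and 0.04, and those of differently numbered ones by −0.22 to 0.29. With 3 libraries per group this cannot show whether same-numbered libraries shared a batch. Of 215 called genes that the naming rule covers, none changed direction in any of the 16 alternatives; 136 lost the call in the fit of all 19 libraries and 74 without control replicate 2. With 3 against 3 libraries an exact permutation test cannot go below 0.1, so single values were tested only within the fit across all genes. At this depth 8 of 16 inflammasome genes and 1 of 5 microglial markers had enough counts to be tested.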

Other observations

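Cadherins, the calcium-dependent adhesion molecules by which neurons sort, moved in both directions. Of 15 type II and classic cadherins 2 rose and 3 fell, with a median log2 difference of −0.08. Over all genes tested 2.4% rose and 6.16% fell. Cdh9 went from 12.7, 11.1 and 10.5 to 16.3, 18.5 and 20.8 normalised CPM (log2 0.70, SE 0.11, edgeR adjusted p = 0.000626), and Cdh10, which lies on the same chromosome 15, rose by 0.34. Cdh13 fell by 0.52 and Cdh4 by 0.44. Of 19 non-clustered protocadherins and giant cadherins Pcdh18 rose and 5 fell, among them Pcdh9 by 0.67 and Pcdh7 by 0.48, and without control replicate 2 the count that fell was 3. Of 54 clustered protocadherins 3 fell and none rose, with a median of −0.16. That is 5.56%, beside 6.16% of all genes tested that fell, and in the fit of all 19 libraries none was called.

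Genes of glucose use did not move together. Slc2a1, the glucose transporter GLUT1, went from 63.2, 64.9 and 72.3 to 43.9, 45.1 and 43.0 normalised CPM, a fall of 0.60 on the log2 scale (SE 0.07, edgeR adjusted p = 2.95e-05), and Pfkp, a phosphofructokinase, fell by 0.26. Gpi1, the next enzyme upstream of phosphofructokinase, rose, as given above. Of the 20 glycolysis genes tested 2 rose and 2 fell, 10% each, beside 2.4% and 6.16% of all genes tested. Shh, the ligand of the hedgehog pathway that SAG activates downstream, went from 23.3, 22.8 and 23.2 normalised CPM in the controls to a mean of 16.3, a fall of 0.50 (SE 0.09), and Cyp26b1, which breaks down retinoic acid, fell by 0.65. Both kept their calls when any 1 of the 6 libraries was left out and lost them in the fit of all 19. They belong to a list of retinoic acid and hedgehog genes with 20 tested and a median log2 difference of 0.10. In that list 3 rose, Aldh1a2, Stra6 and Rxrg, and 2 fell, 15% and 10% beside 2.4% and 6.16% of all genes tested. None of the list rose without control replicate 2 or 3 or in the fit of all 19 libraries.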
